A study of Mus musculus with 8 samples.

Results

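The 39 genes described here encode the machinery of mitosis: the cyclins and the kinase that start it, the Aurora and Polo kinases, the spindle checkpoint, the centromere and kinetochore, and the motors and bundling proteins of the spindle. They were chosen by name as mitotic genes, with earlier results of these data known, and each was found at exactly 1 locus of the female table and 1 of the male table, out of 23518 gene names that both tables list. All 39 averaged 1 FPKM or more in each table and so passed the filter on low values in both sexes. FPKM is the number of sequenced fragments scaled by transcript length and by library size.

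The cells came from mouse gonads at E15.5, embryonic day 15.5, and were sorted for Oct4-EGFP, a transgene active in germ cells. The 8 RNA-Seq libraries hold 2 of controls and 2 of Snf5 CKO for each sex. In Snf5 CKO embryos 1 Snf5 allele was floxed and the other deleted, and TNAP-Cre, a Cre expressed from the alkaline phosphatase locus in primordial germ cells, removed Snf5 (gene symbol Smarcb1), which encodes a core part of the SWI/SNF chromatin remodeller. The controls were a mixture of genotypes, either Snf5 fx/+ or Snf5 fx/Δ without Cre, or Snf5 fx/+ with TNAP-Cre, so that some controls carried Cre or a deleted allele as well. Strain is labelled C57BL/6, whereas the study's methods describe a mixed background. Most libraries pooled several embryos, but the study lists 1 mouse in each entry of the male CKO libraries, with 2 entries for replicate 1. In males the number of embryos pooled thus differed with the genotype. Cre left some SNF5-positive germ cells in CKO gonads, in a share that varied among individual mice.

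At this stage the germ cells of the 2 sexes are not in the same part of the cell cycle. Female germ cells have entered meiotic prophase, in which chromosomes pair while the enzymes of division are held back. Male germ cells, called prospermatogonia, have left the mitotic cycle and rest before birth. Mitosis itself is driven by cyclin B bound to Cdk1: Cdc25 phosphatases switch this kinase on, Aurora and Polo kinases build the spindle and correct attachments, and the checkpoint holds separase in check through securin until every kinetochore is attached. Most of these genes are transcribed in late G2 and M phase. Many of their promoters carry a CCAAT box and a cell cycle genes homology region (CHR), whose core was searched for here as TTTGAA alone.

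The targeted gene was checked first. Smarcb1 was at 23.4 and 22.3 FPKM in the female controls against 4.24 and 2.47 in the female CKO libraries, and at 141 and 167 FPKM in the male controls against 8.73 and 10.1 in the male CKO libraries. Its log2 fold change was -2.48 ± 0.24 (SE, adjusted p = 0.00029) in females and -3.90 ± 0.18 (SE, adjusted p = 0.0022) in males. The sum of FPKM over all loci of a library ranged from 673741 to 1554757. The tables hold no counts, so the depth of each library is unknown and no counting interval is given.

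The 8 germ cell markers summed to 1885 and 1924 FPKM in female controls against 2992 and 3166 in the CKO, with 4 called higher and 2 lower, and to 5007 and 5346 in male controls against 4488 and 5030, with 1 called higher and 3 lower. Dppa3 went from 41.2 and 61.3 to 1406 and 1633 FPKM in females, while Mael went from 670 and 631 to 203 and 140.0 there. Dazl was between 606 and 997 FPKM in all 8 libraries. Pou5f1, the gene of Oct4, whose promoter drives the sorting transgene, went from 8.63 and 16.7 to 295 and 333 FPKM in females. Its log2 fold change by limma was 4.59 there (adjusted p = 0.00011). In males it went from 399 and 436 to 620 and 648 FPKM (0.60, adjusted p = 0.094). What part this has in which cells the sort collected was not tested. Markers of other states moved with the genotype. The summed level of 6 meiotic germ cell markers was 4135 and 3858 FPKM in female controls against 597 and 739 in female CKO libraries. Of the 6, 5 were called lower, among them Sycp3 and Sycp1, which encode parts of the synaptonemal complex. Stra8 was not, at a log2 fold change of 0.003 (limma adjusted p = 0.99). In males the 6 summed to 243 and 330 FPKM in controls against 66.5 and 91.9 in the CKO, with 2 called lower. The summed level of 4 prospermatogonial markers was 421 and 383 FPKM in male controls against 15.3 and 20.1 in male CKO libraries, with all 4 called lower. In females these 4 summed to 9.69 and 13.4 FPKM in controls against 2.82 and 2.18 in the CKO, with 2 tested and 2 called lower. The 7 Sertoli cell markers summed to 90.5 and 64.5 FPKM in male controls and to 382 and 559 in male CKO libraries, with all 7 called higher. In females the Sertoli markers summed to between 2.49 and 7.45 FPKM, with Sox9, Amh, Dhh, Cldn11 and Cst9 under 1 FPKM in every library, and the 7 pre-granulosa markers to 9.79 and 12.4 FPKM in controls against 24.8 and 20.2 in CKO libraries. Of these 7, 2 were called higher and 1 lower. Blood and endothelial markers ranged from 23.8 to 98.7 FPKM in females and from 59.97 to 99.7 in males, stromal markers from 3.94 to 12.9 and from 2.46 to 21.2, and Leydig cell markers were at 85.7 and 58.2 in male controls against 19.2 and 15.1 in male CKO libraries. Among these, Pecam1 was called higher in females, from 4.10 and 3.65 to 24.3 and 19.7 FPKM. It did not stand for its list, as Cdh5, Kdr and Ptprc were under 1 FPKM in every female library. Stromal markers called lower numbered 1 in females and 3 in males. Of the Leydig markers, 1 was called higher in females and 3 lower in males. What part these shifts have in the changes of the mitotic genes was not tested, and in sorted pools fewer cells of a type and less RNA per cell cannot be told apart.

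Control and CKO libraries were compared within each sex with limma on log2(FPKM + 1). A gene was called higher or lower at a log2 fold change of at least 1 in size and a Benjamini-Hochberg adjusted p under 0.05 over all genes tested. Fold changes on this scale understate the change of genes near 1 FPKM. In females 18 of the 39 genes were called higher in the CKO and 1 lower, where 17.2% of the 11642 loci tested were called higher and 21.8% lower. In males 12 were called higher and 1 lower, against 14.3% and 17.5% of the 12368 loci tested. Both CKO libraries lay above both controls for 25 of the 39 genes in females and 24 in males, and below them for 6 and 9, where 36.2%, 34.5%, 45.3% and 39.9% of all loci did. The median log2 fold change over the 39 genes was 0.62 in females and 0.76 in males, beside -0.14 and -0.07 over all loci tested. Replicate 2 read lower than replicate 1 in most members, with a median ratio between 0.88 and 0.93 in the 4 groups. The ratio of CKO to control pointed the same way in both replicates for all 39 genes in each sex. That held also where no change was detected, as for Ttk in females (0.988 and 0.949). Same-numbered libraries shared their deviations over the members (r = 0.79 in females and 0.95 in males), and the share of all loci was not computed. At an adjusted p under 0.05 with no limit on size, 19 genes were higher and 5 lower in females, and 18 higher and 6 lower in males, where 26.7%, 34.8%, 20.9% and 25.3% of all loci were. With the replicate number as a block these counts were 23 and 8 in females and 26 and 11 in males. The block leaves little in the libraries of a sex to measure spread by. Its small p-values therefore rest largely on the spread that limma borrows from other genes. With libraries rescaled to a common sum of FPKM, 8 members were called higher in males, and Ccnb2 (0.89), Incenp (0.96), Nuf2 (0.99) and Prc1 (0.82) were not. With no filter on low values, where the log2 fold changes stayed as they were, the calls of Kif20a and Kif2c in females and of Cenpa, Incenp, Prc1, Pttg1 and Tpx2 in males were lost.

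**Figure D1:**
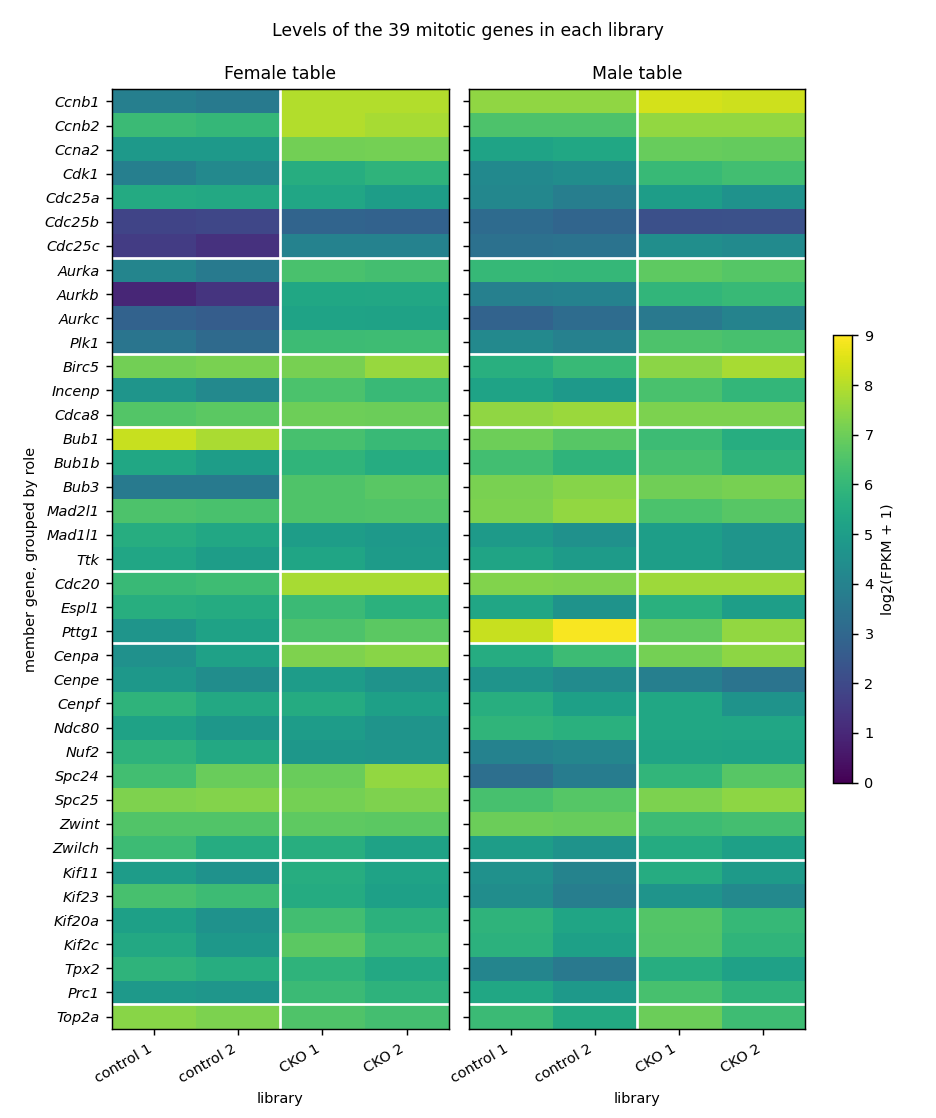
Level of each member in each of the 8 libraries, as log2(FPKM + 1) in colour, with members in rows grouped by role, libraries in columns, females on the left and males on the right. The cyclins and the Aurora and Polo kinases brighten from control to CKO in the female panel, whereas Bub1 at the top of the checkpoint block darkens, from 302 and 232 FPKM to 81.6 and 68.3.

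The 3 cyclins rose in both sexes at an adjusted p under 0.05, and their rise was larger in females, with male minus female differences of -3.33 for Ccnb1, -0.76 for Ccnb2 and -0.62 for Ccna2 (adjusted p = 0.0002, 0.019 and 0.028). Ccnb1, cyclin B1, the partner of Cdk1 at the entry into mitosis, was at 13.6 and 11.7 FPKM in the female controls and at 248 and 251 in the female CKO libraries. Its locus in the table is chr13:100778739-100786486 (mm10). The groups lay far apart, at 12.7 ± 1.33 against 249 ± 2.04 FPKM (SD, n = 2), a 19.7-fold ratio with a log2 fold change of 4.20 ± 0.17 (SE, adjusted p = 0.00011). In males Ccnb1 was already high in the controls, at 180.2 and 180.1 FPKM, and reached 338 and 321 in the CKO, a log2 fold change of 0.87 ± 0.19 (SE, adjusted p = 0.02) under the size limit. Ccnb2, cyclin B2, went from 69.4 and 63.1 to 251 and 225 FPKM in females and from 88.0 and 88.2 to 187 and 186 in males, and was called higher in both, with log2 fold changes of 1.83 ± 0.18 and 1.07 ± 0.17 (SE, adjusted p = 0.00031 and 0.0077). In males that call was lost without control replicate 1, where the log2 fold change stayed at 1.07 with an adjusted p of 0.058. Ccna2, cyclin A2, which serves S phase and G2, rose from 27.4 and 28.2 to 134 and 137 FPKM in females and from 35.9 and 39.7 to 120.0 and 117 in males. Its log2 fold changes were 2.24 ± 0.16 and 1.62 ± 0.17 (SE, adjusted p = 0.00013 and 0.0029). Exons of Ccna2 share 12.5% of their bases with Exosc9, and the kit does not keep strand. Loci over 1.5 times the length of the gene were those of Ccna2, Cdc25b, Cdc20, Zwilch and Kif20a in both tables, and of Cdc25a and Tpx2 in the female table.

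Cdk1, the kinase itself, was called higher in both sexes. It was at 13.9 and 17.9 FPKM in female controls against 47.6 and 57.0 in the CKO, and at 18.5 and 20.0 in male controls against 65.4 and 75.7. No library of one genotype overlapped the other, with log2 fold changes of 1.66 ± 0.20 in females and 1.82 ± 0.17 in males (SE, adjusted p = 0.0006 and 0.0027). The difference between the sexes was 0.16 ± 0.25 (SE, adjusted p = 0.63). The 3 Cdc25 phosphatases behaved differently from one another. Cdc25c, which removes the inhibitory phosphates from Cdk1 at mitosis, went from 2.01 and 1.45 to 15.1 and 15.1 FPKM in females, a log2 fold change of 2.57 ± 0.20 (SE, adjusted p = 0.00016), and from 9.23 and 9.67 to 20.8 and 18.7 in males, just under the size limit at 0.99 ± 0.17 (SE, adjusted p = 0.01). Exons of Cdc25c share 12.7% of their bases with the coding gene Gm3550. Cdc25b, the phosphatase that acts at the centrosome, was low throughout, at 2.58 and 2.73 against 6.48 and 6.18 FPKM in females and at 7.78 and 6.65 against 3.59 and 3.70 in males. The Cdc25b locus of both tables is 41.3 times as long as the annotated gene, and what part neighbouring genes have in its value was not tested. It was called higher in females, at 1.0 ± 0.18 (SE, adjusted p = 0.0034), while its log2 fold change in males was -0.82 ± 0.19 (SE, adjusted p = 0.022). The female value sits on the limit and was 0.97 without control replicate 1 and also 0.97 without CKO replicate 1. Cdc25a, which also acts at the start of S phase and whose female locus is 2.59 times the length of the gene, was called in neither sex, at -0.30 ± 0.18 in females (SE, adjusted p = 0.19) and 0.78 ± 0.23 in males (SE, adjusted p = 0.042). Of these 7 genes, 6 were called higher in females (85.7%, beside 17.2% of all loci) and 3 in males (42.9%, beside 14.3%).

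Promoter sequences were taken from RefSeq (build GRCm38.p6), each running from 250 bases before to 50 bases after the start that RefSeq gives. They were at hand for 31 of the 39 genes, which leaves out Aurkb, Spc24, Kif20a, Cdc25c, Zwilch, Incenp, Tpx2 and Ccna2. The CHR core, searched as TTTGAA on either strand, was present in 19 of the 31 promoters (61.3%), against 18.1% of 27025 promoters of all genes. CCAAT on either strand was present in 24 of 31 (77.4%), against 37.9% of all, and both motifs together in 17 (54.8%), against 7.1%. In 18 of the 31 (58.1%) a CHR core began within 50 bases of the start, where 4.9% of all promoters had one. Neither motif contains the other, so no single match counts for both. The windows of Cdca8, Kif2c, Mad2l1 and Pttg1 do not hold the outermost 5′ end that GENCODE M21 gives the gene. Over the other 27 windows, 17 (63.0%) held a CHR core and 23 (85.2%) a CCAAT box. Below are 5 promoters, 5′ to 3′ on the strand of the gene, with every match to TTTGAA or CCAAT, on either strand, in capitals. Plk1 (chr7:122159185-122159484, plus strand), Ccnb2 (chr9:70421505-70421804, minus strand) and Cdk1 (chr10:69352863-69353162, minus strand) are genes that rose in both sexes and hold both motifs. Ccnb1 (chr13:100786437-100786736, minus strand) has 2 CCAAT boxes but no TTTGAA in this window. Nuf2 (chr1:169531415-169531714, minus strand), whose change differed between the sexes, has neither TTTGAA nor CCAAT in this window. A CHR with any other letters would be missed by this search.

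Plk1: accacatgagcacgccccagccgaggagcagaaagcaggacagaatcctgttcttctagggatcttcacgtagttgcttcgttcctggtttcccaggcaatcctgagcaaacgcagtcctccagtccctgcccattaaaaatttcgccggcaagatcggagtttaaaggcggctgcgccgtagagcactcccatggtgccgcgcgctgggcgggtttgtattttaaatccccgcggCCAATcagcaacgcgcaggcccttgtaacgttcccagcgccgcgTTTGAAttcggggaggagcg
Ccnb2: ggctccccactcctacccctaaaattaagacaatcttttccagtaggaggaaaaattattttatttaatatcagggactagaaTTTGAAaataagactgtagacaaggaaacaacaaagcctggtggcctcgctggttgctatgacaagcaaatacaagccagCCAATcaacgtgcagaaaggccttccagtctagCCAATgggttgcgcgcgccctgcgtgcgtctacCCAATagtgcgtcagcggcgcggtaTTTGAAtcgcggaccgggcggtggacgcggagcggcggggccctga
Cdk1: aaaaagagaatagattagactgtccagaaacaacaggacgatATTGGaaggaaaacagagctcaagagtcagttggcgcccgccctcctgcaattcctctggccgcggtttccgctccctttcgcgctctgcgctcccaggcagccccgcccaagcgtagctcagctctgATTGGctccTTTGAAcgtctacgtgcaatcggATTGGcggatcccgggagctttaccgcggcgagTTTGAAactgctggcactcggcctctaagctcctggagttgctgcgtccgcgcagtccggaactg
Ccnb1: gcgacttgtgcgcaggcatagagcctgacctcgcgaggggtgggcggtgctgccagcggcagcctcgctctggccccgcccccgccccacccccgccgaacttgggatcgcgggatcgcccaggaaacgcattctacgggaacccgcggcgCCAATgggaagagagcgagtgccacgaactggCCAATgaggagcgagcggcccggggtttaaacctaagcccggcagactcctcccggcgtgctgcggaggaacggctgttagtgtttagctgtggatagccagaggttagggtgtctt
Nuf2: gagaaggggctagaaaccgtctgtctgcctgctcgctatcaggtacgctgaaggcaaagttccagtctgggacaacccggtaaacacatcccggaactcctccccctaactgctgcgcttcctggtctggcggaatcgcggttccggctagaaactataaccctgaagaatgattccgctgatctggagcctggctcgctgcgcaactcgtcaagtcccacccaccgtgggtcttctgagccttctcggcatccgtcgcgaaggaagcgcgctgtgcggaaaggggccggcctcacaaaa

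The 19 genes with a CHR core had a median log2 fold change of 0.62 in females and 0.68 in males, with 9 and 5 called higher and 0 lower by limma (2 and 1 lower at an unadjusted p under 0.05). The 12 genes without TTTGAA had medians of 0.19 and -0.30, with 4 and 2 called higher and 1 lower in each sex. These are counts over small lists, and a match is a stretch of letters, not a measured binding site. Of all loci tested, 17.2% in females and 14.3% in males were called higher, and 21.8% and 17.5% lower.

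**Figure D2:**
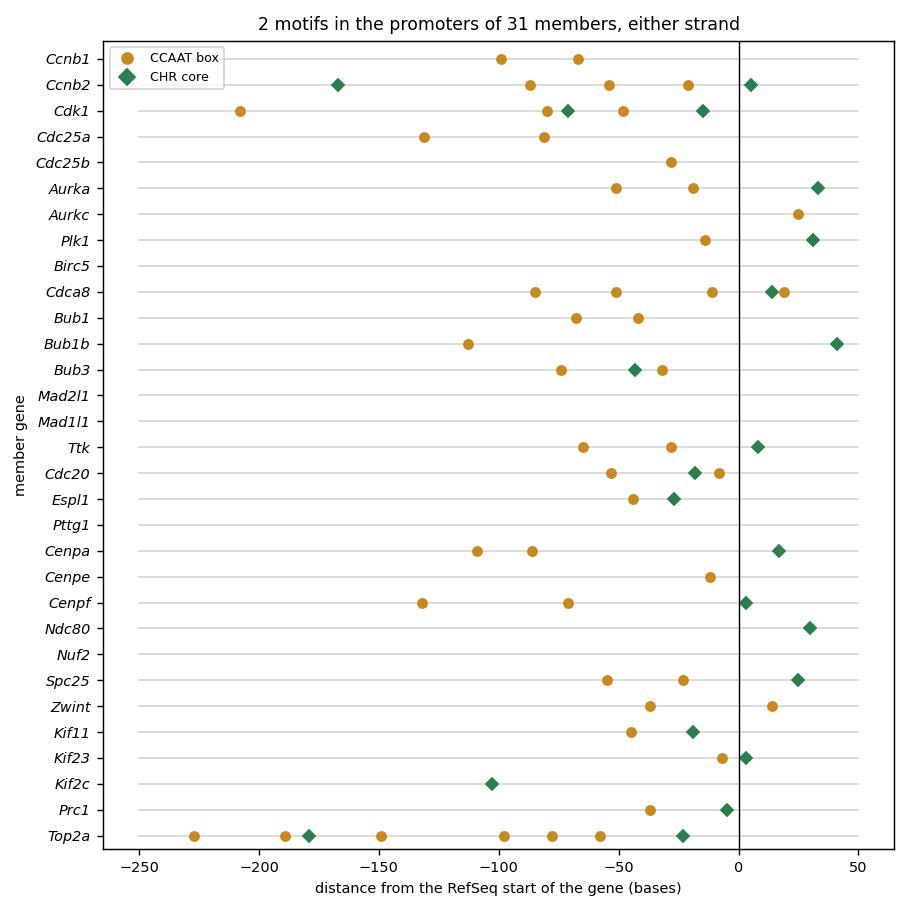
Position of each CCAAT box (circles) and CHR core (diamonds) in the 31 promoters, as the distance in bases of its first base from the RefSeq start of the gene, with 1 row per gene. Most diamonds lie within 50 bases of the start, as in 18 of the 31 promoters, and most circles lie upstream of it.

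All 4 Aurora and Polo kinases were called higher in females, beside 17.2% of all loci. Their CKO libraries lay above their controls in both sexes, as did those of 36.2% of all loci in females and 34.5% in males. Aurkb, the kinase of the chromosomal passenger complex, which corrects faulty attachments, lies at chr11:69045632-69051662 (mm10) in the female table and was low in female controls, at 0.945 and 1.54 FPKM, and at 39.8 and 40.7 in the CKO. Its log2 fold change of 4.21 ± 0.20 (SE, adjusted p = 0.00011) stood beside that of Ccnb1 as the largest of the 39 in females, and it rose from 14.3 and 15.0 to 59.9 and 65.4 FPKM in males, by 2.02 ± 0.16 (SE, adjusted p = 0.0023). Plk1, the Polo kinase, which acts from mitotic entry to cytokinesis, went from 10.2 and 7.60 to 71.9 and 71.9 FPKM in females and from 17.7 and 14.6 to 88.5 and 82.4 in males. Both changes passed the limit, at 2.89 ± 0.19 and 2.34 ± 0.18 (SE, adjusted p = 0.00011 and 0.0023). Aurka, the centrosomal Aurora kinase, rose from 16.1 and 11.9 to 85.4 and 78.6 FPKM in females, by 2.48 ± 0.20 on the log2 scale (SE, adjusted p = 0.00016). Male controls held 63.9 and 62.6 FPKM of it and male CKO libraries 108 and 96.6, a change of 0.68 ± 0.17 (SE, adjusted p = 0.026). Aurkc, the Aurora kinase best known from meiosis and oocytes, went from 6.11 and 5.37 to 35.8 and 35.3 FPKM in females, a log2 fold change of 2.44 ± 0.17 (SE, adjusted p = 0.00013). In males it went from 6.31 and 7.97 to 11.6 and 15.3 FPKM, at 0.82 ± 0.23 (SE, adjusted p = 0.037).

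The partners of Aurkb in the chromosomal passenger complex did not follow it as a group. Incenp, the scaffold of the complex, was called higher in both sexes, from 24.9 and 17.9 to 86.2 and 67.9 FPKM in females and from 36.4 and 27.9 to 83.5 and 61.0 in males. Its log2 fold changes were 1.81 ± 0.22 and 1.14 ± 0.24 (SE, adjusted p = 0.00067 and 0.017), and in males the call was lost without control replicate 2 (0.95, adjusted p = 0.058) and without CKO replicate 1 (0.92, adjusted p = 0.055). Birc5, survivin, was high in female controls and CKO alike, at 136 and 144 against 143 and 194 FPKM, with a change of 0.25 ± 0.21 (SE, adjusted p = 0.34). Its male controls were at 50.3 and 66.3 FPKM and its male CKO libraries at 171 and 226, a rise of 1.75 ± 0.24 (SE, adjusted p = 0.0055). Cdca8, borealin, was at 95.9 and 104 against 127 and 125 FPKM in females and at 180.2 and 198 against 147 and 150.4 in males, and was called in neither (0.33 ± 0.17 and -0.34 ± 0.18, SE, adjusted p = 0.14 and 0.18).

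**Figure D3:**
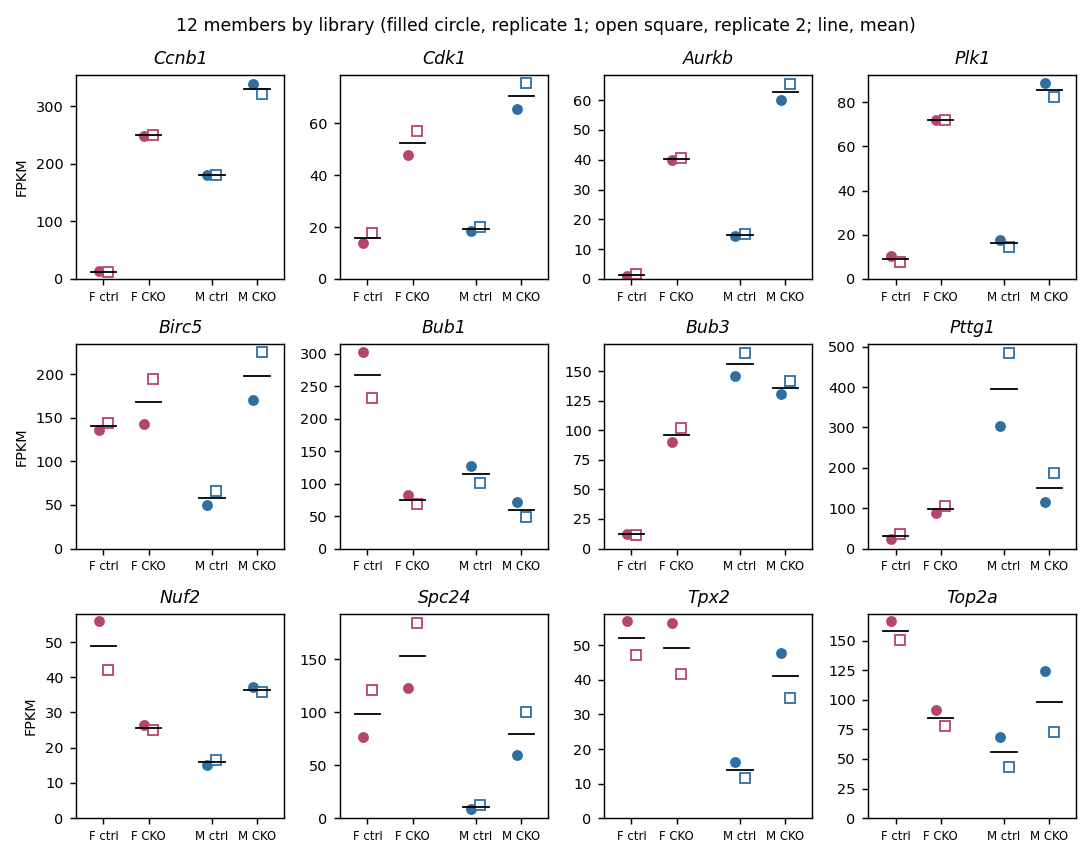
FPKM of 12 members in each library, with controls and CKO of females (F) and males (M) on the horizontal axis, replicate 1 as filled circles, replicate 2 as open squares and the mean of the pair as a line. Ccnb1, Cdk1, Aurkb and Plk1 are higher in the CKO of both sexes, whereas Pttg1 is higher in the female CKO and lower in the male CKO, and Nuf2 and Top2a show the reverse.

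Of the 6 spindle checkpoint genes, 1 was called higher by limma in females (16.7%, beside 17.2% of all loci) and 0 in males, where 0 were higher at an unadjusted p under 0.05 either. Bub1, a checkpoint kinase at the kinetochore that also protects centromeric cohesion, was the 1 gene of the 39 called lower in females. It lies at chr2:127800200-127831896 (mm10) in the female table. It was at 302 and 232 FPKM in female controls, the highest member there, and at 81.6 and 68.3 in the CKO, a log2 fold change of -1.81 ± 0.21 (SE, adjusted p = 0.0006). In males it went from 127 and 102 to 71.5 and 47.9 FPKM, at -0.94 ± 0.26 (SE, adjusted p = 0.037), below the size limit, which it passed without control replicate 2 (-1.10) or CKO replicate 1 (-1.23). Bub3, which carries Bub1 and the BubR1 protein to kinetochores, moved the other way in females, from 12.1 and 11.7 to 90.5 and 102 FPKM, by 2.92 ± 0.17 (SE, adjusted p = 0.00011). In males Bub3 was at 146 and 165 FPKM in controls and 130.4 and 141 in the CKO, a change of -0.19 ± 0.19 (SE, adjusted p = 0.43).

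Mad2l1, the checkpoint protein that binds Cdc20, was between 84.8 and 93.5 FPKM in the 4 female libraries. In males it went from 148 and 185 to 85.7 and 101 FPKM, with no overlap, and was not called at -0.83 ± 0.21 (SE, adjusted p = 0.028). Mad1l1, its anchor at the kinetochore, was at 48.2 and 40.9 against 31 and 28.2 FPKM in females, a change of -0.57 ± 0.17 (SE, adjusted p = 0.027), and its male libraries overlapped between 22.7 and 32.0. Bub1b, which encodes BubR1, was at 40.5 and 30.9 against 58.4 and 46.6 FPKM in females (0.55 ± 0.21, SE, adjusted p = 0.056) and overlapped in males between 56.5 and 81.3. Ttk, the Mps1 kinase that starts checkpoint signalling, overlapped between genotypes in both sexes, at 29.7 to 38.7 FPKM in females and 25.0 to 36.9 in males.

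Of the 3 anaphase genes, 2 were called higher in females (66.7%, beside 17.2% of all loci), and 1 was called lower in males (33.3%, beside 17.5%). Pttg1, securin, the inhibitor of separase, was at 24.8 and 35.2 FPKM in female controls and 88.6 and 106 in the CKO, a log2 fold change of 1.68 ± 0.22 (SE, adjusted p = 0.00086). Male controls held 304 and 484 FPKM, the second being the highest level of any member in any library, and male CKO libraries 114 and 187, a log2 fold change of -1.39 ± 0.36 (SE, adjusted p = 0.031). Pttg1 was the 1 gene of the 39 called lower in males and the 1 called in opposite directions in the sexes, where 2.07% of the 10799 genes tested in both were. The 2 male replicates stood apart from each other, but CKO over control was 0.375 in replicate 1 and 0.387 in replicate 2, and with the replicate block the adjusted p was 4.2e-05. Without control replicate 2 (-1.05, adjusted p = 0.091) or CKO replicate 1 (-1.03, adjusted p = 0.11) the male call was lost. Cdc20, the activator of the anaphase-promoting complex, rose from 67.9 and 73.2 to 226 and 227 FPKM in females, by 1.67 ± 0.17 (SE, adjusted p = 0.00037), and went from 155 and 154 to 205 and 204 in males (0.41 ± 0.18, SE, adjusted p = 0.12). Espl1, separase itself, was called in neither sex, at 48.6 and 44.9 against 70.0 and 53.1 FPKM in females and at 39.3 and 23.5 against 51.8 and 32.0 in males.

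Of the 9 centromere and kinetochore genes, only Cenpa was called higher in both sexes, as were 6.54% of all genes tested in both. Cenpa, the histone H3 variant that marks centromeres, rose from 22.7 and 34.9 to 151 and 169 FPKM in females and from 47.1 and 70.4 to 136 and 178 in males. Its log2 fold changes were 2.46 ± 0.23 and 1.42 ± 0.27 (SE, adjusted p = 0.00028 and 0.013), and the male call was lost without control replicate 1 (1.14, adjusted p = 0.053). The 4 subunits of the Ndc80 complex, the main link of the kinetochore to microtubules, did not move as 1 unit. Spc24 was at 76.3 and 121 against 123 and 184 FPKM in females (0.64 ± 0.30, SE, adjusted p = 0.1) and went from 8.74 and 12.8 to 59.5 and 100.02 in males, the largest log2 fold change of the 39 there at 2.75 ± 0.32 (SE, adjusted p = 0.0038). Nuf2 was at 56.0 and 42.0 against 26.5 and 24.9 FPKM in females, at -0.89 ± 0.19 (SE, adjusted p = 0.0071), and rose from 15.0 and 16.6 to 37.1 and 35.9 in males, by 1.16 ± 0.16 (SE, adjusted p = 0.0058). In females Nuf2 passed the size limit without control replicate 2, at -1.10.

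Spc25 was high in all 4 female libraries, at 151 and 162 against 137 and 152 FPKM, and went from 82.0 and 98.4 to 148 and 178 in males (0.84 ± 0.20, SE, adjusted p = 0.025). Ndc80 was not called in either sex, at 35.5 and 25.9 against 30.6 and 24.5 FPKM in females and at 58.0 and 51.7 against 40.2 and 39 in males. In male controls the 4 subunits of this complex were thus at unlike levels, from 8.74 FPKM for Spc24 to 98.4 for Spc25. Zwint and Zwilch, which tie the checkpoint's dynein adaptor to the kinetochore, and Cenpe and Cenpf, a kinetochore motor and a large kinetochore protein, were not called in either sex. Their log2 fold changes ran from -0.47 for Zwilch to 0.20 for Zwint in females and from -0.83 for Cenpe to 0.52 for Zwilch in males. Zwint and Cenpe fell in males at an adjusted p of 0.025 and 0.038 without reaching the size limit, and for Cenpe that size was passed without CKO replicate 1, at -1.04.

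Among the 6 spindle motors and midzone proteins, 3 were called higher in females and 2 in males, beside 17.2% and 14.3% of all loci. Prc1, which bundles the antiparallel microtubules of the midzone, was called higher in both, from 28.3 and 25.4 to 69.1 and 56.1 FPKM in females (1.19 ± 0.18, SE, adjusted p = 0.0016) and from 40.1 and 28.2 to 82.1 and 56.8 in males (1.0 ± 0.27, SE, adjusted p = 0.036). The male value lay on the limit and fell to 0.76 without control replicate 2 and 0.74 without CKO replicate 1, and exons of Prc1 share 11.1% of their bases with Rccd1. Kif2c, a kinesin that takes microtubules apart at centromeres, rose from 42.4 and 27.1 to 105 and 66.7 FPKM in females, by 1.28 ± 0.29 (SE, adjusted p = 0.0086), and was at 54.7 and 33.8 against 93.2 and 57.9 in males (0.76 ± 0.34, SE, adjusted p = 0.13). Kif20a, a midzone kinesin of cytokinesis, rose from 33.5 and 22.8 to 77.1 and 53.5 FPKM in females, by 1.19 ± 0.26 (SE, adjusted p = 0.0069), and was at 56.6 and 38.1 against 96.5 and 64.8 in males (0.76 ± 0.30, SE, adjusted p = 0.093). With the replicate block in limma the male adjusted p was 0.00022 for Kif2c and 0.00021 for Kif20a, at the same fold changes under the size limit. Exons of Kif20a share 29.3% of their bases with Cdc23, on a kit that does not keep strand. The Kif20a locus is 6.20 times the length of the gene in the female table and 6.13 times in the male one. Cdc23 itself was called higher in females, at 1.65 ± 0.20 (SE, adjusted p = 0.00069). In males it rose by 0.96 ± 0.18 (SE, adjusted p = 0.012), under the size limit. What part Cdc23 has in the value of Kif20a was not tested. In females the calls of both kinesins were lost on size without control replicate 2 (Kif2c 0.96, Kif20a 0.92) and without CKO replicate 1 (Kif2c 0.95, Kif20a 0.93), and in males both passed it without CKO replicate 2 (Kif2c 1.10, Kif20a 1.04).

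Tpx2, which activates Aurka on the spindle, was at 56.9 and 47.2 against 56.6 and 41.8 FPKM in females, with no change detected (-0.09 ± 0.21, SE, adjusted p = 0.73). In males it rose from 16.3 and 11.5 to 47.7 and 34.7 FPKM, by 1.5 ± 0.26 (SE, adjusted p = 0.0095). The female locus of Tpx2 is 2.98 times the length of the gene, and the male one is not widened. Kif23, the motor of the central spindle, was at 81.7 and 71.7 against 45.2 and 33.5 FPKM in females, at -0.96 ± 0.20 (SE, adjusted p = 0.0062), and overlapped in males between 13.4 and 24.6. Without control replicate 2 (-1.05) or CKO replicate 1 (-1.17) the female change of Kif23 passed the size limit. Kif11, the motor that separates the spindle poles, went from 30.3 and 23.2 to 47.2 and 36.0 FPKM in females (0.62 ± 0.21, SE, adjusted p = 0.042) and from 22.4 and 15.3 to 46.5 and 29.2 in males (0.95 ± 0.31, SE, adjusted p = 0.056). Top2a, the topoisomerase that untangles sister chromatids, was at 167 and 150.4 against 91.4 and 77.9 FPKM in females and at 68.9 and 43.1 against 124 and 72.6 in males. Neither change was called, at -0.90 ± 0.19 and 0.79 ± 0.36 (SE, adjusted p = 0.0056 and 0.13), and each passed the size limit without 1 library, the female one without CKO replicate 1 (-1.01) and the male one without CKO replicate 2 (1.18). With the replicate block in limma the male adjusted p was 0.00021 for Top2a and 0.00026 for Kif11, at the same fold changes under the size limit.

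**Figure D4:**
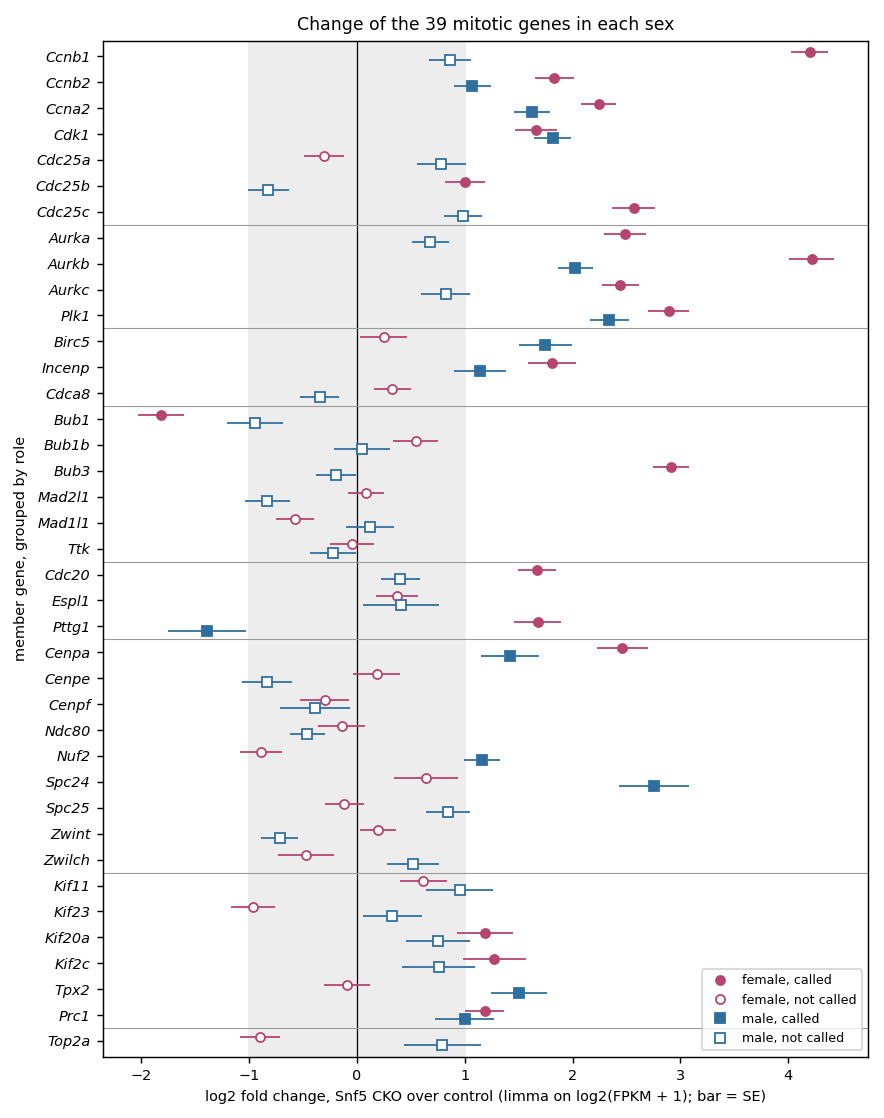
Log2 fold change of Snf5 CKO over control for each member in females (circles) and males (squares), with its SE as a bar, members grouped by role, called changes filled and the size limit of 1 shaded. The Aurora and Polo kinases all lie to the right in both sexes, the checkpoint genes other than Bub1 and Bub3 lie inside or at the edge of the shaded band, and Pttg1, Nuf2 and Top2a point in opposite directions in the 2 sexes.

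Set side by side, 8 of the 39 genes (20.5%) were called higher in both sexes: Aurkb, Ccna2, Ccnb2, Cdk1, Cenpa, Incenp, Plk1 and Prc1. Of the 10799 genes tested in both, 6.54% were. By the same limma calls 0 of the 39 were lower in both, beside 5.27% of those genes, and at an unadjusted p under 0.05 the 1 gene lower in both was Bub1. The calls of 9 genes (23.1%) were higher in females alone and those of 4 (10.3%), Birc5, Nuf2, Spc24 and Tpx2, higher in males alone. Of all loci tested, 17.2% were called higher in females and 14.3% in males, whatever the other sex did. The share of all genes called higher in 1 sex alone was not computed, so these counts are not read as particular to the members. Whether an effect differed between the sexes was tested in a joint fit of the 8 libraries, as the male log2 fold change minus the female one, each taken within its own table. It was called for 17 of the 39 genes (43.6%), 7 with the higher effect in males and 10 in females, where 38.9% of the 12910 genes tested were called, 19.1% and 19.8% in these directions. The share of the members is near that of all genes. The largest were Ccnb1 at -3.33 ± 0.20 (SE, adjusted p = 0.0002), Bub3 at -3.11 ± 0.20 (SE, adjusted p = 0.0002) and Pttg1 at -3.06 ± 0.45 (SE, adjusted p = 0.0017), all 3 with the higher effect in females. The 4 genes called higher in males alone all passed this test, at 1.5 for Birc5, 1.59 for Tpx2, 2.05 for Nuf2 and 2.11 for Spc24 (adjusted p = 0.0079, 0.0083, 0.00072 and 0.011). Of the 9 genes called in females alone, Kif20a and Kif2c did not pass it, at -0.43 ± 0.44 and -0.52 ± 0.52 (SE, adjusted p = 0.45 and 0.44), while Ccnb1, Bub3, Aurka, Aurkc, Cdc20, Cdc25b and Cdc25c did. Cenpa, at -1.04 ± 0.39 (SE, adjusted p = 0.06), was called with the replicate block (adjusted p = 0.0016).

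The levels themselves were more alike between the sexes in the CKO than in the controls. Across the 39 genes, Pearson's r between the female and the male log2(mean FPKM + 1) was 0.44 in controls and 0.93 in CKO libraries, and the median absolute gap fell from 0.91 to 0.32 on the log2 scale. Over the 11088 genes tested in both tables r was 0.73 and 0.92 and the median gap 0.93 and 0.36. These are descriptions across genes, which are not independent, of tables quantified separately, and no level was tested across them. Bub3 is an example: its female and male controls held 11.9 ± 0.255 and 156 ± 13.5 FPKM, and its CKO libraries 96.4 ± 8.35 and 136 ± 7.69 (SD, n = 2). For Spc24 the controls were at 98.8 ± 31.8 and 10.8 ± 2.86 FPKM and the CKO libraries at 154 ± 43.7 and 79.8 ± 28.6 (SD, n = 2).

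**Figure D5:**
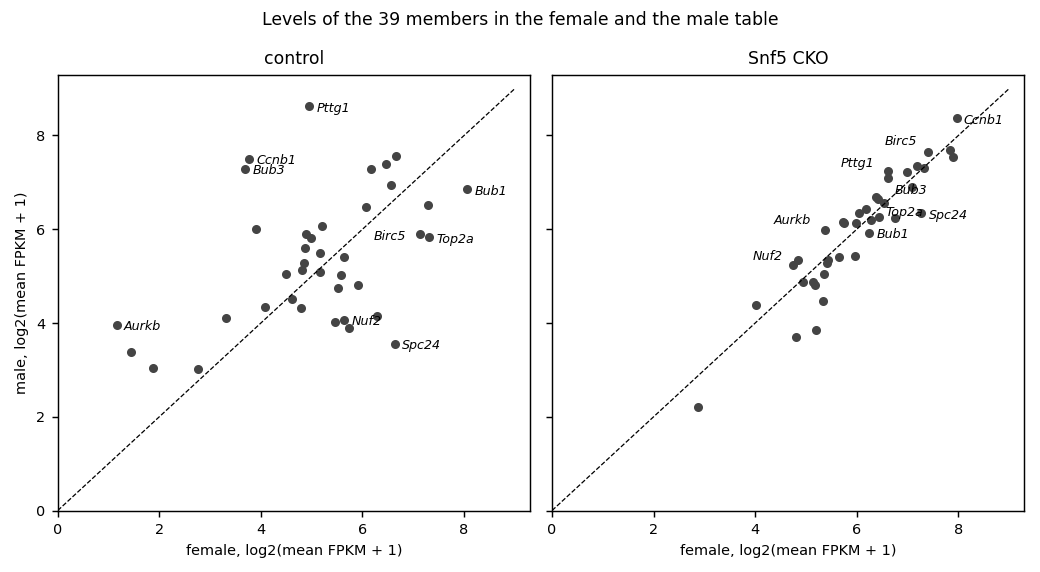
Level of each member in males against females, as log2(mean FPKM + 1) of 2 libraries, for controls on the left and Snf5 CKO on the right, with the dashed line at equal levels. The points scatter widely in controls (r = 0.44) and lie near the line in the CKO (r = 0.93), and Pttg1, Ccnb1, Bub3 and Spc24 are far from it on the left.

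A further list held 85 mitotic genes outside the 39. In females 12 of 85 were called higher (14.1%) and 10 lower (11.8%), beside 17.2% and 21.8% of all loci, with a median log2 fold change of 0.01 beside -0.14. In males 18 of 84 were called higher (21.4%) and 1 lower (1.19%), beside 14.3% and 17.5% of all loci, with a median of 0.29 beside -0.07. Of 16 genes of the APC/C and its regulators, 5 were called higher in females and 3 in males. Of the centromere and outer kinetochore genes, 2 were higher and 5 lower of 30 in females and 6 were higher of 29 in males. Of 8 condensin genes, 2 were lower in females, and 2 were higher and 1 lower in males. Among 16 other kinesins and spindle proteins 2 were higher and 2 lower in females and 3 higher in males, and among 9 genes of mitotic entry and transcription 3 were higher and 1 lower in females and 3 higher in males. Limma called 0 of 5 cytokinesis genes in either sex, with 3 lower in females and 1 higher and 1 lower in males at an unadjusted p under 0.05. In females the 5 largest called changes were those of Ube2c, the E2 enzyme of the APC/C, at 3.02 ± 0.30, the APC/C subunit Cdc26 at 2.34 ± 0.18, the cell cycle transcription factor Mybl2 at 2.08 ± 0.19, the inner kinetochore protein Cenpq at -2.02 ± 0.17 and another protein of the inner kinetochore, Cenpt, at 1.93 ± 0.18 (SE, adjusted p = 0.00033, 0.00014, 0.00025, 0.00019 and 0.00025). In males they were those of Fbxo5, the APC/C inhibitor Emi1, at 3.01 ± 0.18, Mki67 at 2.28 ± 0.27, Wee1, the kinase that holds Cdk1 inactive, at 1.77 ± 0.24, Cenpm at 1.69 ± 0.26 and Ube2c at 1.62 ± 0.28 (SE, adjusted p = 0.0022, 0.0038, 0.005, 0.0073 and 0.0094). The 1 gene called lower in males was Ncapd3, a condensin II subunit, at -1.58 ± 0.32 (SE, adjusted p = 0.015). Mki67, the Ki-67 proliferation marker, went from 2.51 and 1.80 to 17.5 and 11.6 FPKM in males, and was at 29.2 and 19.1 against 21.2 and 13.4 in females, where the groups overlapped (-0.46 ± 0.28, SE, adjusted p = 0.2).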

How the data were processed

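Germ cells were sorted by Oct4-EGFP and their cDNA was made with a SMART-Seq v4 kit, which does not keep strand. The authors mapped paired-end reads to UCSC mm10 with Tophat, quantified them in one run per sex, and deposited FPKM values per locus. For the quantification their methods name Cufflinks, whereas the sample notes name Cuffdiff. Starts in the tables count from 0, and 1 was added. The annotation version and the scaling of libraries are not given in the sources used here. Their 16 columns of confidence limits were set aside. Groups follow the labels, and replicates are separate samples for which the labels name no embryos, so p-values measure the spread between these samples.

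Loci were matched by gene name. Each sex was fitted with limma 3.58.1 in R 4.3.3 (lmFit, eBayes with trend) on log2(FPKM + 1) of named loci with a mean of at least 1 FPKM. A joint fit of 8 libraries gave the difference between the sexes. With 2 libraries against 2, an exact permutation test cannot go below p = 0.333, so none is given. All 39 members could be named. Of the 85 further genes, up to 5 called genes with the largest change in each sex were named, with Mki67. Cdc23 was added because its exons overlap those of Kif20a. Members and lists were chosen with earlier results of these data known.

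In the labels the replicate 1 libraries share a flow cell lane and the replicate 2 libraries another naming of raw files, and the male columns number 2 experiments. The deviations of same-numbered libraries from their group means correlated over all loci (r = 0.50 in females and 0.59 in males). Over the 39 members r was 0.79 and 0.95. The main fits left this link out, and the replicate block takes it in. The limma step was tested on simulated data with independent noise of equal spread for all genes of a sex. That simulation held no replicate effect, so it cannot show how the link between same-numbered libraries bears on the calls. Alternatives were another pseudocount, other filters, 2 rescalings, the replicate block and leaving out each library.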

Additional observations from a re-analysis of the deposited data

Results flagged for a closer look

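The effect of the genotype differed between the sexes, by the interaction term of the joint limma fit, for 17 of the 39 mitotic genes (43.6%), near the 38.9% of all genes tested. The values are male minus female log2 fold changes. The effect was lower in males for Ccnb1 (-3.33), Bub3 (-3.11), Pttg1 (-3.06), Aurkb (-2.19), Cdc25b (-1.82), Aurka (-1.80), Aurkc (-1.62), Cdc25c (-1.58), Cdc20 (-1.27) and Cenpe (-1.01). It was higher in males for Spc24 (2.11), Nuf2 (2.05), Top2a (1.69), Tpx2 (1.59), Birc5 (1.5), Kif23 (1.29) and Cdc25a (1.09). The Cdc25a and Tpx2 loci are wider than the gene in the female table alone, and that of Cdc25b in both. Of the 17, Cenpe, Cdc25a and Kif23 lost the call when a single library was left out, and Top2a lost it without female control replicate 1 (1.62, adjusted p = 0.055). The effect of Cdc25a was then between 0.88 and 1.30, that of Kif23 between 1.01 and 1.57, and that of Cenpe between -1.23 and -0.80.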

How the results depend on the processing

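Of 1676 recomputed fold changes and sex differences of single members, 1562 kept their direction and their side of the threshold, 48 lost the call, 35 gained it and 31 changed sign. Leaving out a library gave 15 to 18 members higher in females and 11 to 17 in males, 1 to 3 lower in females and 1 to 2 in males, 5 to 8 with the higher effect in males, and 1 to 5 further genes lower in males. The replicate block changed 1 call among the members, the sex difference of Cenpa.

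With no filter on low values, members called lower in males numbered 0 and those with the higher effect in males 3, further genes called lower in females 5, those called higher and lower in males 11 and 0, and all loci called higher in males 1083. With libraries rescaled to a common sum, 3 members were lower in males, 3 had the higher effect in males, and 7 further genes were higher and 2 lower in males. Median-of-ratios rescaling gave 6 further genes lower in females, the replicate block 2 lower in males, and a mean of at least 5 FPKM 1353 loci lower in males. The cause was not tested. The common sum moved the median of all loci by 0.01 in females and -0.17 in males on the log2 scale, and median-of-ratios by 0.16 and 0.15. The medians of the members were then 0.65 and 0.57, and 0.79 and 0.92.

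The changes of sign all lay in members near 0. In females, median-of-ratios turned Ndc80 (0.028), Spc25 (0.059), Tpx2 (0.081) and Ttk (0.13), and in males the common sum turned Bub1b (-0.14) and Mad1l1 (-0.062), and the sex differences of Cdk1 (-0.057) and Espl1 (-0.17). Leaving out a library gave, in females, -0.016 to 0.38 for Cenpe, -0.36 to 0.080 for Ndc80, -0.30 to 0.12 for Tpx2 and -0.22 to 0.13 for Ttk, and, in males, -0.20 to 0.30 for Bub1b and -0.057 to 0.30 for Mad1l1. For the sex difference it gave -0.013 to 0.33 for Cdk1, -0.46 to 0.28 for Cenpf, -0.33 to 0.39 for Espl1, -0.45 to 0.077 for Prc1 and -0.35 to 0.00051 for Ttk. The unknown depth of the libraries and 2 libraries a group limit what these tests can resolve.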
